A study of Mus musculus with 6 samples.

Results

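The genes described here are 50 markers of the skeletal lineages of the limb, from mesenchymal and patterning factors to genes of bone, cartilage, tendon and fibrous tissue. They were chosen by name. Each gene took its values from whichever of its own probe sets, annotated to it alone, had the highest mean over the arrays. This gave values for 48 of the 50 genes within a table of 18193. Runx2 and Spp1 had no such probe set and were not analysed here. RNA came from 2 sorted cell populations of the fore and hind limb skeleton of mice at postnatal day 3, with 3 arrays each, and each sample was drawn from the pooled limbs of a litter. One population, named Tie2-negative in what follows, was sorted as lacking the leukocyte antigen CD45, the erythroid antigen Ter119, integrin alpha V (Itgav) and the angiopoietin receptor Tie2. The other, named Tie2-positive, lacked CD45 and Ter119, was low for Itgav and was positive for Tie2. The genotype is labelled as wild type for both populations, while the dissociation protocol speaks of mice labelled with GFP. No treatment is named, and arrays are numbered by replicate. Whether the replicates of a population stem from different litters is not stated, so p-values reflect the spread among these replicates, which may be technical.

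Limb skeletal tissues arise from mesenchyme that carries Prrx, Twist, Msx, Tbx and Hox transcription factors. Part of this mesenchyme condenses into cartilage under Sox9, part forms bone under Runx2 and Sp7, and part forms tendon under Scx. Each tissue is then known by its matrix: type I collagen and mineral-binding proteins in bone, type II collagen and aggrecan in cartilage, and type I and III collagens with small leucine-rich proteoglycans in tendon and fibrous tissue. In the bone marrow, Lepr marks stromal cells that lie around sinusoids.

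Most skeletal lineage genes lay near or below the middle of the array in both populations. Levels are given as log2 values after quantile normalization, minus the median of all 45037 probe sets on that array, so that 0 is the middle of the array. In the Tie2-negative population 15 of 48 members lay above 0 on all 3 arrays and 24 lay below 0 on all 3, where 59.8% of all genes lay above and 30.9% below. In the Tie2-positive population 9 lay above and 24 below, where 59.7% of all genes lay above and 30.6% below. A stricter line of at least 2 on all 3 arrays was reached by 1 member in the Tie2-negative cells, Col1a2, against 30.9% of all genes, and by 2 in the Tie2-positive cells, Col1a2 and Col3a1, against 29.2%. By their lowest array, Msx1 (1.32) and Col9a1 (1.07) came next in the Tie2-negative cells, and Msx1 (0.92) in the Tie2-positive cells. Postn, Dpt and Col1a1 had at least 1 Tie2-positive array above 2 and at least 1 below it. Without Tie2-positive array 1, Postn and Dpt reached it too. Measured against the median over genes instead of probe sets, 5 and 2 members lay above the middle on all arrays of the Tie2-negative and Tie2-positive cells. The median level over the 48 members ran from -0.28 to -0.18 on the Tie2-negative and from -0.39 to -0.28 on the Tie2-positive arrays, where the median over all genes ran from 0.80 to 0.87 and from 0.87 to 0.96. No detection calls accompany the values, and a probe set at or below the array median may measure background, so such levels do not show that a gene was made. Probe sets also respond unequally, so the order of genes by level is not an order of transcript abundance.

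**Figure D1:**
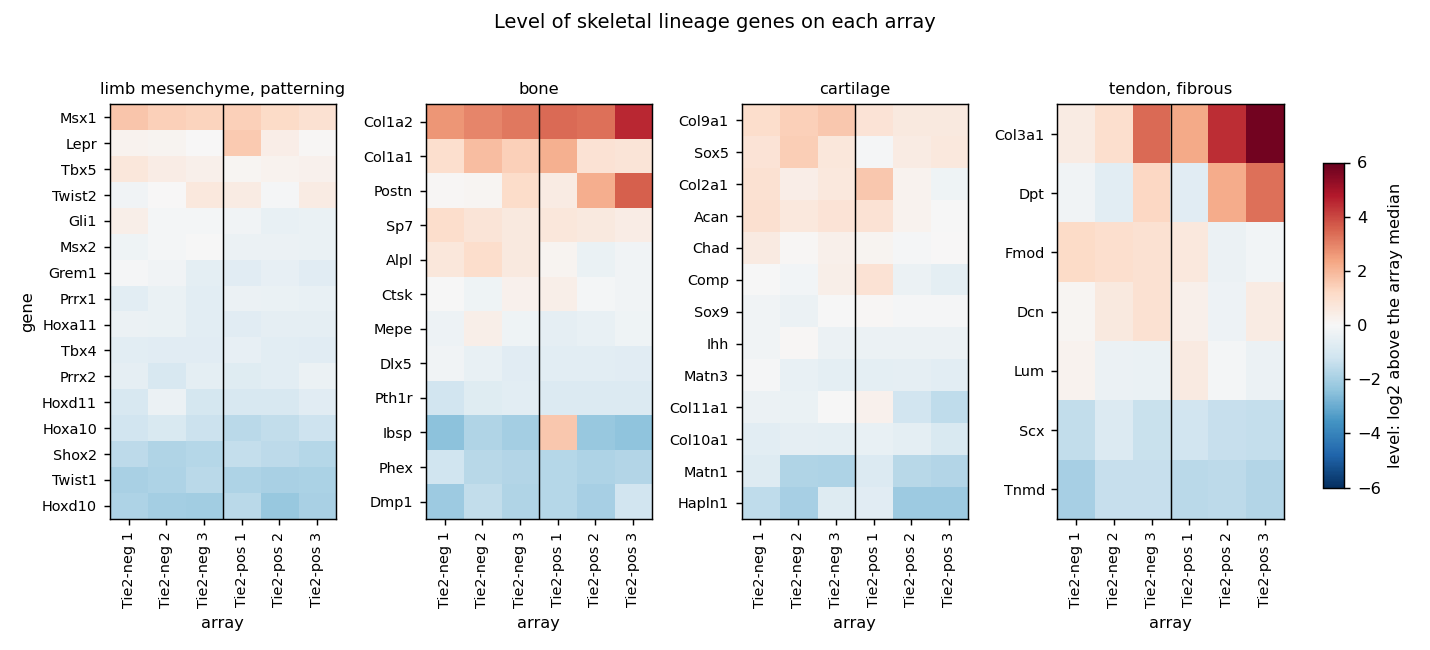
Heat map of the level (log2 above the median of all probe sets of the array; colour scale from -6 to 6) of the 48 measured genes on the 6 arrays, in 4 groups by role and sorted by mean; the vertical line parts Tie2-negative from Tie2-positive arrays. Red is seen for Col1a2 on all 6 arrays and for Col3a1, Postn and Dpt on Tie2-positive arrays 2 and 3. Col3a1 is also red on Tie2-negative array 3 (3.40) and deepest on Tie2-positive array 3 (5.77). Twist1, Hoxd10, Dmp1, Phex and Tnmd are blue throughout.

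Markers of other cell types were high in both populations. The median level of 12 endothelial genes, among them the junction gene Cdh5, reached 5.69, 4.16 and 3.34 on Tie2-positive arrays 1, 2 and 3 but stayed from 0.29 to 0.44 on the Tie2-negative arrays. That of 9 erythroid genes was between 5.14 and 6.67 on the Tie2-negative arrays and 0.46, 3.42 and -0.05 on Tie2-positive arrays 1, 2 and 3. That of 11 B-lineage genes was between 1.99 and 4.47 against values from -0.27 to 0.06. The 10 neutrophil and monocyte genes had medians of 0.37, 5.80 and 7.73 on Tie2-positive arrays 1, 2 and 3, and of 0.46, 2.17 and 2.83 on Tie2-negative arrays 1, 2 and 3. In sorted bulk samples such as these, fewer cells of a type and less RNA per cell cannot be told apart.

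Among 16 genes of limb mesenchyme and patterning, 2 lay above the array median on all Tie2-negative arrays and 3 on all Tie2-positive arrays, and 11 and 12 lay below it on all. Prrx1, a homeobox gene of early limb mesenchyme, had levels of -0.61, -0.41 and -0.61 on the Tie2-negative and of -0.33, -0.38 and -0.44 on the Tie2-positive arrays. All 6 values of this probe set were below the middle of the array, and the populations overlapped. Probe set 1425528_at had -0.93, -1.28 and -0.88 against -0.98, -0.06 and 0.68. Its difference of 0.91 ± 0.39 (SE) did not pass (limma adjusted p = 0.199 over all probe sets). Probe set 1439774_at stayed below 0 with a difference of 0.44, and both were highest on Tie2-positive array 3. The remaining Prrx1 probe sets had differences of -0.05, -0.25 and -0.09. Prrx2, a relative of Prrx1, lay between -0.95 and -0.36. The helix-loop-helix gene Twist1 lay between -1.96 and -1.62, while its relative Twist2 lay on both sides of 0, from -0.23 to 0.62.

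Msx1, a homeobox gene of undifferentiated limb mesenchyme, had the highest mean of this group, with levels of 1.67, 1.44 and 1.32 on the Tie2-negative and of 1.41, 1.13 and 0.92 on the Tie2-positive arrays. The populations overlapped. Msx2 lay between -0.39 and -0.04. Tbx5, which specifies the forelimb, lay between 0.14 and 0.70, and Tbx4, its hindlimb counterpart, between -0.69 and -0.50. The other Tbx5 probe set lay between -1.02 and -0.52. Its difference was 0.24 against -0.27 in the one used, so level and direction depended on the probe set. The remaining patterning genes were low: Shox2, which acts in proximal limb segments, had population means of -1.69 and -1.58, Hoxd10 of -1.98 and -1.94, and Hoxd11 of -0.80 and -0.87 in the Tie2-negative and Tie2-positive cells. Hoxa11 had population means of -0.45 and -0.56. Hoxa10 was represented by a probe set with population means of -1.11 and -1.46, and its other probe set had -1.76 and -1.02, so that the direction of its difference depended on the probe set. The hedgehog target Gli1 and the BMP antagonist Grem1 lay between -0.69 and 0.36.

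Lepr, the leptin receptor, gave unlike answers from its 4 probe sets. The probe set with the highest mean, 1425875_a_at, had levels of 0.20, 0.15 and 0.00 on the Tie2-negative arrays and of 1.55, 0.39 and 0.08 on Tie2-positive arrays 1, 2 and 3. These overlapped, and the difference of 0.55 ± 0.37 (SE, n = 3 per population) did not pass (limma adjusted p = 0.352). Probe set 1456156_at had levels of -2.03, -1.64 and -2.13 on the Tie2-negative arrays and of 4.23, 1.75 and 1.10 on Tie2-positive arrays 1, 2 and 3. All Tie2-positive arrays were above all Tie2-negative arrays there, a rise of 4.29 ± 0.73 (SE; limma adjusted p = 0.0254 over all 45037 probe sets, of which 5.01% passed). It was the single one of 91 probe sets of the 48 members to pass in that fit. Probe set 1425644_at also separated the populations, with values between -2.12 and -1.96 against values between -0.26 and 2.52, but did not pass (2.84 ± 0.65, SE; limma adjusted p = 0.0551). The fourth, 1425873_a_at, lay between -1.12 and -0.66 on all 6 arrays. The names of the probe sets do not say which Lepr transcripts each one matches. The order of the Tie2-positive arrays in the 3 other probe sets was that of the endothelial median, with replicate 1 highest and replicate 3 lowest, and the part of endothelial content in the Lepr values was not tested.

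**Figure D2:**
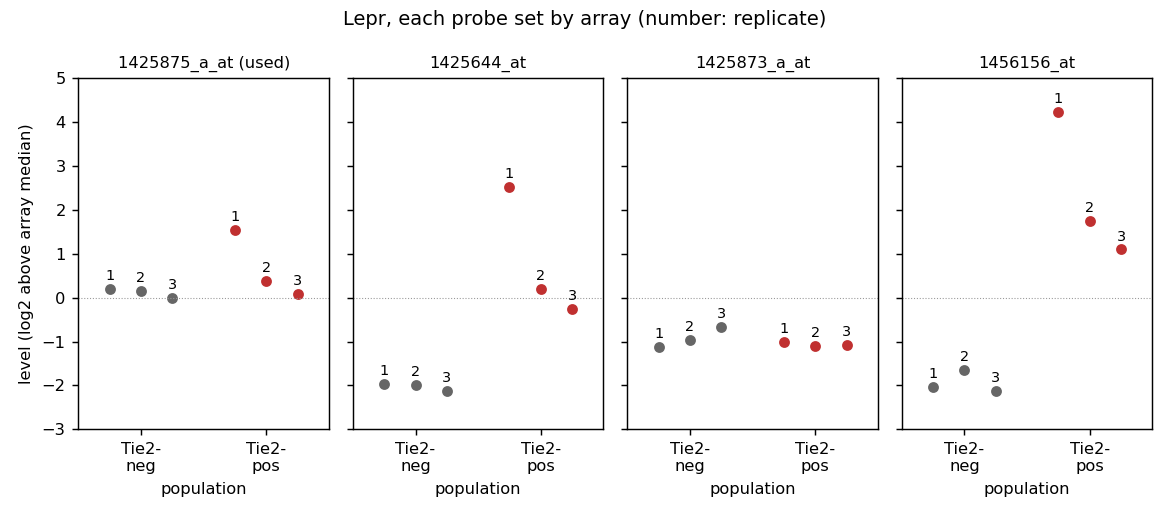
Level of Lepr (log2 above the array median) by array in each of its 4 probe sets, grey for Tie2-negative and red for Tie2-positive arrays, numbered by replicate. Probe sets 1456156_at and 1425644_at separate the populations, 1425875_a_at overlaps between them, and 1425873_a_at stays below 0 on all 6 arrays.

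Among bone genes Col1a2 had the highest mean in both populations, and genes of osteocytes were mostly below the array median. Of 12 measured members, 5 lay above the array median on all Tie2-negative and 4 on all Tie2-positive arrays. Sp7, the transcription factor osterix of osteoblast commitment, had levels of 1.05, 0.77 and 0.60 on the Tie2-negative and of 0.69, 0.58 and 0.44 on the Tie2-positive arrays, with overlap. Dlx5, a homeobox gene of osteoblasts, lay between -0.70 and -0.19, and Pth1r, the parathyroid hormone receptor, between -1.15 and -0.65. Among genes of osteocytes and mineral handling, Dmp1 lay between -2.17 and -1.17, the phosphate regulator Phex between -1.83 and -1.18, and Mepe between -0.55 and 0.33. Ctsk, the collagen-degrading protease of osteoclasts, had levels of -0.01, -0.24 and 0.25 on the Tie2-negative and of 0.33, -0.14 and -0.23 on the Tie2-positive arrays, which overlapped around the middle of the array.

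Alpl was the single member that passed the test between populations. It encodes the tissue-nonspecific alkaline phosphatase that frees phosphate for mineralisation, and neutrophils and other cells also make it. Its levels were 0.68, 1.04 and 0.60 in the Tie2-negative and 0.15, -0.40 and -0.22 on Tie2-positive arrays 1, 2 and 3. The populations did not overlap, and Alpl fell by 0.93 ± 0.21 (SE, n = 3 per population) on the log2 scale in the Tie2-positive population (limma adjusted p = 0.0460). It did not pass when any one array other than Tie2-positive array 1 was left out (adjusted p from 0.0933 to 0.135), and with all probe sets tested its adjusted p was 0.0549. The erythroid and B-lineage medians given above were also lower, and the neutrophil median was higher on 2 of 3 Tie2-positive arrays, and the part of these cells in the Alpl values was not tested.

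Of the genes of type I collagen, the main protein of bone matrix, Col1a2 lay clearly above the array median. Col1a2, the alpha 2 chain, had levels of 2.63, 2.91 and 3.15 on the Tie2-negative and of 3.41, 3.31 and 4.51 on Tie2-positive arrays 1, 2 and 3. Every Tie2-positive array was above every Tie2-negative array, which held for 15.3% of all genes, and the difference of 0.85 ± 0.36 (SE) did not pass (limma adjusted p = 0.182). Another Col1a2 probe set gave population means of 1.20 and 2.04, and the remaining one lay at -2.01 and -2.23, so the height above the array median depended on the probe set. Col1a1, the alpha 1 chain, had levels of 0.99, 1.85 and 1.42 on the Tie2-negative and of 2.13, 0.85 and 0.75 on the Tie2-positive arrays. Its populations overlapped, with a difference of -0.18 ± 0.42 (SE), and the 2 chains thus did not share an order of arrays. Its other probe set lay at means of -0.09 and -0.13.

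Ibsp, which encodes bone sialoprotein of mineralising matrix, was high on 1 array. Its levels were -2.44, -1.82 and -2.06 on the Tie2-negative arrays and 1.60, -2.28 and -2.40 on Tie2-positive arrays 1, 2 and 3. The difference of 1.07 ± 1.02 (SE) did not pass (limma adjusted p = 0.504), and without Tie2-positive array 1 it was -0.24. The other Ibsp probe set was not high on that array, where it had -1.57 against values between -1.81 and -1.42 on the others.

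No cartilage gene passed the test, and none reached a level of 2 on all arrays of a population. Sox9, the master factor of chondrocytes, had levels of -0.19, -0.33 and -0.04 on the Tie2-negative and of 0.05, -0.07 and -0.05 on the Tie2-positive arrays. Its values in this probe set touched the middle of the array and overlapped. Its other probe sets lay below the array median on every array, 1424950_at from -1.20 to -0.38 and 1433889_at from -1.58 to -0.99. In 1433889_at the populations did not overlap, and the difference of -0.37 did not pass (limma adjusted p = 0.124 over all probe sets). Sox5, the partner of Sox9, had 0.81, 1.47 and 0.67 against -0.06, 0.49 and 0.65. Here every Tie2-negative array was above every Tie2-positive array, by a last margin of 0.67 against 0.65, and the difference did not pass (limma adjusted p = 0.203). Sox5 had 7 probe sets, and all but the one used lay below the array median on every array. Their differences were 0.16, -0.18, 0.18, -0.4, -0.5 and -0.02, so level and direction depended on the probe set.

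Col2a1, the main cartilage collagen, had levels of 0.90, 0.38 and 0.65 on the Tie2-negative arrays and of 1.62, 0.23 and -0.28 on Tie2-positive arrays 1, 2 and 3. Acan, the large proteoglycan aggrecan, had 0.97, 0.63 and 0.84 against 0.85, 0.21 and -0.03. Both overlapped between populations, and both were highest of the Tie2-positive arrays on replicate 1. Comp, a matrix protein of cartilage and tendon, had 0.85, -0.34 and -0.60 on Tie2-positive arrays 1, 2 and 3, and Col11a1, a minor fibrillar collagen of cartilage, had 0.27, -1.13 and -1.54. Of the 13 cartilage genes, 10 had their highest Tie2-positive value on replicate 1, which held for 30 of all 48 members and for 42.0% of all genes.

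Col9a1, a collagen on the surface of cartilage fibrils, had the highest mean of the cartilage group. Its levels were 1.07, 1.45 and 1.64 in the Tie2-negative and 0.80, 0.58 and 0.58 on the Tie2-positive arrays, without overlap, and the difference of -0.74 ± 0.21 (SE) did not pass (limma adjusted p = 0.0788). Its other probe set had 0.80, -0.37 and 0.21 against 2.15, -0.66 and -1.66, with a different order of arrays. Genes of growth plate and matrix assembly lay mostly below 0: the population means of Col10a1, the collagen of hypertrophic chondrocytes, were -0.58 and -0.65, those of the hedgehog ligand Ihh -0.16 and -0.34, those of matrilin 1 (Matn1) -1.48 and -1.42, those of matrilin 3 (Matn3) -0.35 and -0.60, and those of the link protein Hapln1 -1.44 and -1.68. Chad, a leucine-rich protein of cartilage, had 0.31 and 0.03. The other Matn3 probe set had -1.38, -2.13 and -2.36 against 0.53, -2.43 and -2.58 on Tie2-positive arrays 1, 2 and 3. Its difference was 0.46 against -0.24 in the one used, so level and direction depended on the probe set.

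Genes of tendon and fibrous tissue held tendon factors that were low and, in Col3a1 and Dpt, matrix genes that varied widely between arrays. Scx, the transcription factor of tendon progenitors, had levels of -1.47, -0.82 and -1.32 on the Tie2-negative and of -1.16, -1.37 and -1.43 on the Tie2-positive arrays. Tnmd, a membrane protein of mature tendon cells, had -2.01, -1.39 and -1.39 against -1.64, -1.56 and -1.77. Both stayed below the array median on all 6 arrays. Of the small leucine-rich proteoglycans, Dcn (decorin) had 0.10, 0.58 and 0.90 against 0.29, -0.32 and 0.50, and Lum (lumican) lay between -0.42 and 0.53. Fmod (fibromodulin) had 1.13, 1.01 and 0.93 against 0.61, -0.35 and -0.18, without overlap, and the difference between its means of 1.02 and 0.03 did not pass (SE 0.27, limma adjusted p = 0.0726). Its other probe sets had differences from -1.91 to -0.68, and none passed (limma adjusted p from 0.0619 to 0.174 over all probe sets). The populations overlapped in 1415939_at and 1456084_x_at, but not in the rest.

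Col3a1, Dpt and, from the bone group, Postn were high on the same arrays. Col3a1, the collagen of pliable fibres, had levels of 0.49, 1.02 and 3.40 on Tie2-negative arrays 1, 2 and 3 and of 2.28, 4.44 and 5.77 on Tie2-positive arrays 1, 2 and 3. Dpt, the matrix protein dermatopontin of fibroblasts, had -0.22, -0.61 and 1.25 against -0.66, 2.23 and 3.31. Postn, which encodes periostin of the periosteum and other fibrous tissue, had 0.05, 0.14 and 1.09 against 0.51, 2.18 and 3.57. In each of the 3 genes Tie2-positive array 3 was highest, Tie2-positive array 2 second, and Tie2-negative array 3 the highest of its population, so that the populations overlapped.

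The differences between populations were 2.53 ± 1.05 (SE, n = 3 per population) for Col3a1, 1.48 ± 1.02 for Dpt and 1.66 ± 0.74 for Postn, and none passed (limma adjusted p = 0.173, 0.361 and 0.195). Without Tie2-positive array 1 all 3 passed, with differences of 3.47, 2.63 and 2.45 (adjusted p = 0.0427, 0.0296 and 0.0194), and with Tie2-positive array 1 as the only Tie2-positive array they were 0.65 for Col3a1, -0.81 for Dpt and 0.08 for Postn. Within the Tie2-positive population these genes spanned 3.49, 3.98 and 3.06 between the lowest and the highest array, where the median span was 0.42 over the 48 members and 0.44 over all genes. A second Col3a1 probe set had -1.77, -1.74 and -0.14 against -1.52, 0.90 and 2.55, which is the same placing of the top 2 arrays. The neutrophil median given above was highest on the same arrays, and so were Myf5 and Pax7, transcription factors of muscle progenitors that were picked after their values were seen. Myf5 had -2.59, -2.41 and 0.80 against -1.66, 1.57 and 3.15, and Pax7 had -1.22, -1.02 and 0.34 against -0.81, 1.01 and 2.50. Other genes of the list were mixed. Mylpf, a myosin light chain, was lower in the Tie2-positive cells (-1.54 ± 0.32, SE, limma adjusted p = 0.0401) as the single one of the list to pass. Myog (-1.08 ± 0.50) and Ckm (-0.29 ± 0.16) had differences of the same sign that did not pass. Acta1 (0.45 ± 0.38), Myod1 (0.09 ± 0.38) and Tnnt3 (0.07 ± 0.16) had positive differences that did not pass. Myod1 was highest on Tie2-positive array 3 (0.75). The median of all 8 skeletal muscle genes was -0.31, -0.08 and 0.80 against -0.70, 0.51 and 0.66. The part of these cell types in the fibrous genes was not tested.

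**Figure D3:**
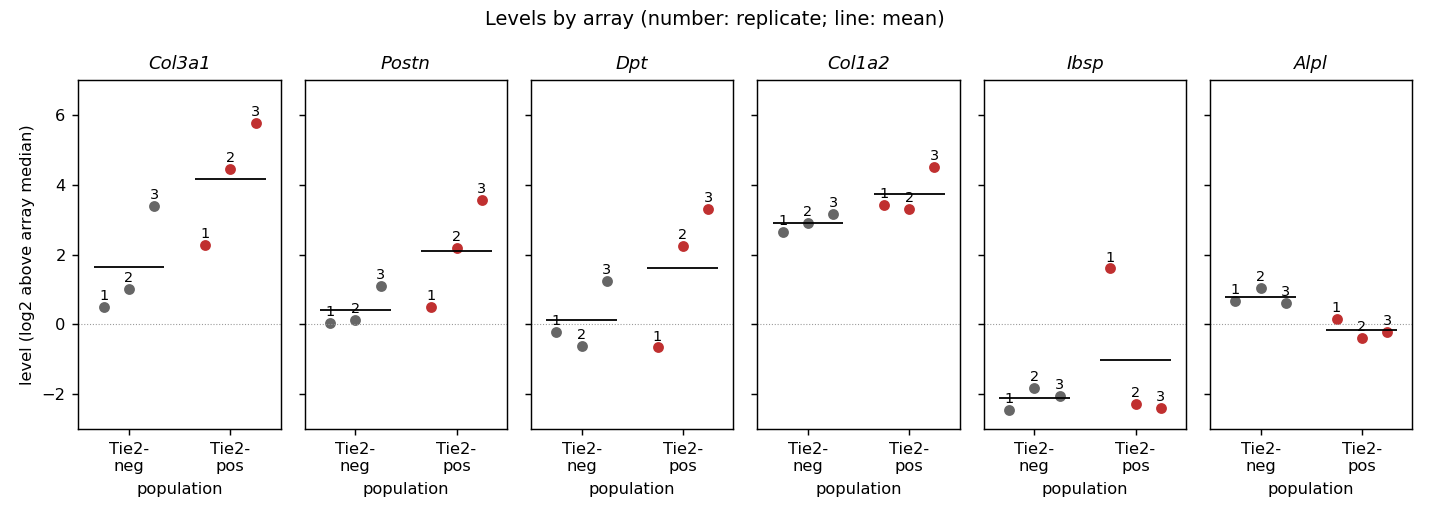
Level (log2 above the array median) of 6 genes by array, grey for Tie2-negative and red for Tie2-positive arrays, numbered by replicate, with a line at the mean of each population. Col3a1, Postn and Dpt are highest on Tie2-positive array 3, Ibsp is above 0 on Tie2-positive array 1 alone, and Alpl is lower on all 3 Tie2-positive arrays.

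The bases just before the annotated start sites of Col1a2, Col3a1, Postn and Dpt are shown because these genes gave the highest levels of the module or varied together. The windows hold 150 bases before the start, 5′ to 3′ on the coding strand, from RefSeq on GRCm38.p6. Capitals mark matches to CCAAT or to TATAAA on either strand. All lie on the plus strand. Col1a2 is at chr6:4505468-4505617, Col3a1 at chr1:45311388-45311537, Postn at chr3:54359117-54359266 for its first and chr3:54360957-54361106 for its second start site, and Dpt at chr1:164796513-164796662.
Col1a2: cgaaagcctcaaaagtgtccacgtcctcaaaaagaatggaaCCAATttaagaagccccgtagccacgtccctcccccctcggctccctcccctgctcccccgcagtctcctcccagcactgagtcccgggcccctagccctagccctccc
Col3a1: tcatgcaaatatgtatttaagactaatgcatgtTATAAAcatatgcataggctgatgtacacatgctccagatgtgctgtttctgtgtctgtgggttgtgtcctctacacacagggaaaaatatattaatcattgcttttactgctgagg
Postn, first start site: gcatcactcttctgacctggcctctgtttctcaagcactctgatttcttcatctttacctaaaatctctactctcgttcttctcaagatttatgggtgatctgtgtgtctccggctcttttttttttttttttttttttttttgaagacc
Postn, second start site: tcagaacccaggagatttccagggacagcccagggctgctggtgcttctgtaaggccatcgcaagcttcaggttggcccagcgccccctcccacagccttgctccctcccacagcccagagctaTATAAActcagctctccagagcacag
Dpt: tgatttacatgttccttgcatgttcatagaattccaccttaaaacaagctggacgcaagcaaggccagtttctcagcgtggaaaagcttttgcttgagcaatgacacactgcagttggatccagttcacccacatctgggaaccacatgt
The match to CCAAT in Col1a2 began 109 bases before the start, and that to TATAAA began 117 bases before the start in Col3a1 and 26 bases before the second start of Postn. Within 250 bases before the start, which is the window searched, 33.8% of all 32851 start sites held CCAAT and 12.4% held TATAAA. Of the 50 genes, 39 were in the table, with 49 start sites, of which 19 held CCAAT and 12 held TATAAA. The other windows shown held neither, and nothing about binding follows from a match or its lack.

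Between the populations, 1 of 48 members passed (Alpl, lower in the Tie2-positive cells), where limma called 7.37% of all 18193 genes, 4.84% as higher and 2.53% as lower. At an unadjusted p under 0.05 there were 5 of 48 members, against 28.6% of all genes. In 8 members the arrays of the populations did not overlap, 1 higher (Col1a2) and 7 lower (Msx2, Tbx5, Gli1, Alpl, Sox5, Col9a1 and Fmod) in the Tie2-positive cells, against 39.1% of all genes (15.3% higher and 23.8% lower). The median difference over the members was -0.12, close to the -0.11 over all genes, and 44 of 48 members differed by less than 1 on the log2 scale. The count of members passing was 6 without Tie2-positive array 1 (Alpl, Fmod and Col11a1 lower, Col3a1, Dpt and Postn higher) and 0 without any other single array. Without Tie2-negative array 1 or 2 limma called 0 of all genes as well (smallest adjusted p 0.0519 and 0.0601), although 4012 and 3978 genes had an unadjusted p under 0.05.

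**Figure D4:**
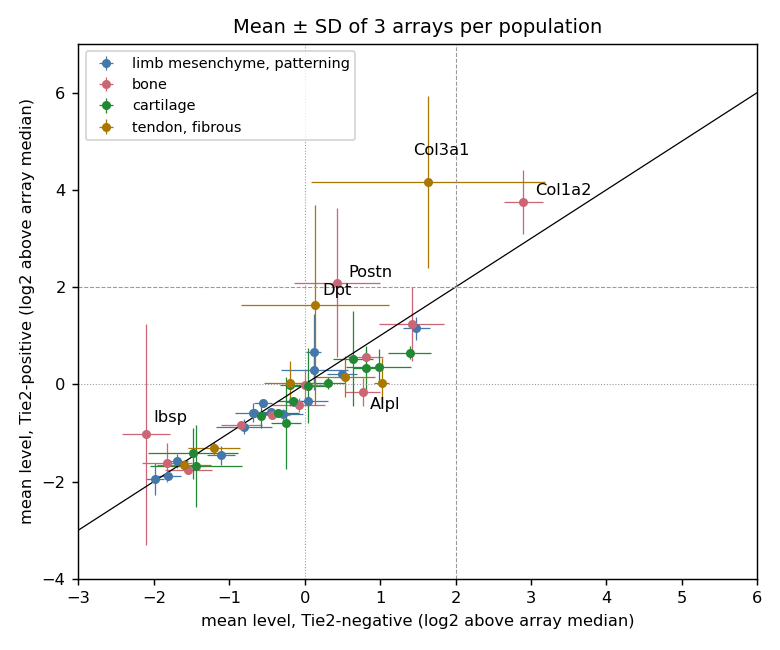
Mean level (log2 above the array median) of each of the 48 genes in the Tie2-negative (horizontal) and Tie2-positive (vertical) population, coloured by role, with bars for the SD of 3 arrays; the diagonal marks equal means, dotted lines the array median and dashed lines a level of 2. Most genes lie on or near the diagonal below 2, and Col3a1, Postn, Dpt and Ibsp lie above it with wide bars.

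Among further skeletal genes outside the 50, a few passed the test between populations. Of 72 such genes in 4 lists, 64 were measured, and 5 rose and 2 fell in the Tie2-positive cells by limma, where 4.84% of all genes were called higher and 2.53% lower. Without Tie2-negative array 1 or 2 none of them passed, and without Tie2-negative array 3 or Tie2-positive array 2 there were 4. Their median level ran from -0.30 to 0.02 across the arrays, and their median difference was -0.06. In the bone list (13 measured, 2 higher, 1 lower), Sparc, the matrix protein osteonectin that vascular cells also make, had levels of 1.56, 1.04 and 2.39 on the Tie2-negative and of 7.54, 6.50 and 5.72 on the Tie2-positive arrays. It rose by 4.92 ± 0.53 (SE; adjusted p = 0.0105). The type V collagen chains moved apart: Col5a2 rose by 3.37 ± 0.54 (SE) and Col5a1 fell by 2.00 ± 0.44 (SE).

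In the cartilage list (17 measured, 1 higher, 1 lower), Papss2, an enzyme that makes the sulfate donor, rose by 3.19 ± 0.38 (SE; limma adjusted p = 0.0109). Sox6, the partner of Sox9 in chondrocytes that also acts in red-cell maturation, had 5.49, 3.39 and 3.03 in the Tie2-negative and -0.34, 0.34 and 0.49 on the Tie2-positive arrays, and fell by 3.81 ± 0.64 (SE; adjusted p = 0.0224). In the patterning list (17 measured, 1 higher), Snai2, a zinc finger gene of mesenchymal transition, rose by 2.97 ± 0.61 (SE), and in the tendon and fibrous list (17 measured, 1 higher), Pcolce, an enhancer of procollagen processing, rose by 2.68 ± 0.58 (SE). Among the 57 that did not pass were Pdgfra (0.15 ± 0.19, SE), Cdh11 (0.02 ± 0.17) and Sost (0.02 ± 0.13), known for mesenchymal progenitors, osteoblasts and osteocytes and named after their values were seen. Pdgfra lay between -0.67 and -0.08, Cdh11 between -1.89 and -1.31 and Sost between -1.34 and -0.96. Such levels below the array median may be background, so these small differences do not show equal expression. The endothelial and erythroid medians given above differed between the same populations, and their part in these changes was not tested.

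Of 12 osteoclast genes, 1 rose and 1 fell, where 4.84% of all genes were called higher and 2.53% lower. Acp5, the tartrate-resistant acid phosphatase, had levels of 5.14, 4.17 and 3.87 on the Tie2-negative and of -0.51, 1.75 and 0.94 on the Tie2-positive arrays, and fell by 3.67 ± 0.61 (SE; limma adjusted p = 0.0219). Itgb3, a partner chain of integrin alpha V, rose by 2.84 ± 0.65 (SE; adjusted p = 0.0481). Ctsk, the osteoclast gene among the 50, did not pass. Of 12 pericyte and smooth muscle genes 1 rose and 1 fell. Mcam, which endothelial cells also make, had 5.54, 3.91 and 3.17 on Tie2-positive arrays 1, 2 and 3 and rose by 3.83 ± 0.58 (SE). Cnn1 had -0.66, -0.46 and -0.72 on the Tie2-negative and -1.12, -1.08 and -1.30 on the Tie2-positive arrays, and fell by 0.56 ± 0.13 (SE; limma adjusted p = 0.0486). All its values lay below the array median, where a probe set may measure background. The median of that list ran from 0.15 to 0.50 across Tie2-negative and from 0.91 to 1.35 across Tie2-positive arrays. The erythroid median was lower in the same population as Acp5, and the endothelial median had the same order of Tie2-positive arrays as Mcam. The part of these cells in both lists was not tested.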

How the data were processed

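RNA from 6 sorted cell samples was amplified in a double round and hybridised to Affymetrix Mouse 430 2.0 arrays, scanned with GCOS 1.1.1, per the labels' protocols. Values deposited by the authors run from 2.56 to 14.78 and were read as log2 from that range. The sources used here do not state their summarisation or normalization. Of 45101 probe sets, 64 controls were left out. Of the rest, 34945 carried 1 gene symbol in the platform annotation, 932 several and 9160 none, and only those with 1 were named. Values were quantile normalized, since 75th percentiles differed between arrays (7.26 to 7.33 Tie2-negative, 7.44 to 7.52 Tie2-positive), which also removes a difference that goes with the populations, and the probe set with the highest mean stood for a gene. Populations were compared with limma 3.58.1 in R 4.3.3 (lmFit, eBayes with trend, all 6 arrays, two-sided, Benjamini-Hochberg over 18193 genes, threshold 0.05). Differences are Tie2-positive minus Tie2-negative. Arrays have no read depth, and their number limits the precision. Identical arrays were sought, and 0 pairs found.

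The members, the other gene lists, the line of 2 and the alternatives were chosen with earlier results of these data known. Values on every array were given for members that passed, that lay at least 2 above the median on all arrays of a population, that are fixed lineage markers or that had the highest mean of their role, and Postn, Dpt, Ibsp, Fmod, Sox5, Comp and Col11a1 were added after their values were seen. On simulated data of 18193 genes the procedure found 25.7% of planted log2 differences of 1, 77.3% of 2 and 83.3% of 3, with 3.73% of calls false. The simulation changed 200 genes and drew each gene independently, with the same SD in both populations. In the data, 8.87% of genes spanned over 1 in the Tie2-negative and 21.3% in the Tie2-positive population. Genes of a cell type also shifted together between arrays, so these rates need not hold for the real comparison. Correlations between arrays ran from 0.969 to 0.983 in the Tie2-negative and from 0.898 to 0.980 in the Tie2-positive population. Alternatives were the replicate block, deposited or median-centred values, a filter at the 40th percentile, other choices of probe set, other variance models, array weights and left-out arrays.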

Additional observations from a re-analysis of the deposited data

How the results depend on the processing

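The members that passed numbered 0 with the replicate number as a block and with the filter at the 40th percentile (which removed Alpl), and 9 with array weights. With all probe sets tested, no probe set used for a member passed, but 1 of the 91 probe sets of the members did, Lepr 1456156_at. Leaving out single arrays gave 0 to 6 members. The genes called numbered 0 with the block (smallest limma adjusted p 0.0528, 5080 at an unadjusted p under 0.05), 2256 of all probe sets, 4634 with array weights, 3653 without the 2 arrays and 0 to 2157 without single arrays. For the other skeletal lists the counts were 0 (block), 20 (weights), 12 (without the 2 arrays) and 0 to 8. With the block the change of Alpl was -0.93 (limma adjusted p = 0.105), and that of Col3a1 was 2.53 (limma adjusted p = 0.0571). Without Tie2-negative array 3 or Tie2-positive array 2 the genes called were 376 and 496. The cause of these shifts was not tested. No call of a member other than Alpl changed with the block. Replicate numbers were not taken as pairs in the main fit. Same-numbered arrays correlated at 0.14, 0.00621 and 0.185 in their deviations from the population means. Each Tie2-negative array correlated best with the Tie2-positive array of its number, though Tie2-positive array 2 correlated best with Tie2-negative array 3 (0.0543). Correlations between unlike numbers ran from -0.161 to 0.0543. These values do not settle whether the replicates are pairs. Members above the median numbered 5 (Tie2-negative) and 2 (Tie2-positive) against the median over genes, and 22 on Tie2-positive array 1 alone. Above the line of 2 there were 0 and 1 against the median over genes, 0 and 0 over the mean of all probe sets, 3 and 2 at a line of 1 and 0 and 1 at a line of 3, and 2 to 4 in the Tie2-positive cells without single arrays. Signs turned in the following differences, none of them called. Over the mean of all probe sets Scx had 0.03 and Sox9 -0.11, and without x_at and s_at probe sets Scx had 0.17. Ibsp had -0.15 with array weights. Without single arrays Col1a1 ran from -0.62 to 0.07, Col2a1 from -0.67 to 0.29, Ctsk from -0.18 to 0.11, Scx from -0.26 to 0.07, Tnmd from -0.27 to 0.05 and Ibsp from -0.24 to 1.76. Without Tie2-positive arrays 2 and 3 together Acan had 0.03, Col1a1 0.71, Col2a1 0.98, Ctsk 0.33, Dpt -0.81 and Scx 0.04. By other probe sets, an alternative chosen after seeing the data, Ibsp had -0.10, Sox9 -0.11 and -0.37, Prrx1 -0.05, -0.25 and -0.09, Lepr -0.14, Scx 0.17, Col1a2 -0.22 and Msx1 0.04. Values near the array median may lie close to background, which limits such small differences.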
